A study of Mus musculus with 4 samples.

Results

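Neurotransmitter receptor subunits are the proteins that assemble into the receptors for glutamate, GABA, glycine and acetylcholine. They were chosen by gene symbol, which matched 74 of the 52550 genes counted: 73 subunit genes and *Chrna1os*, a transcript from the opposite strand of *Chrna1* that encodes no subunit and was left aside. Their transcripts were measured in whole retina of wild-type C57BL/6 mice at postnatal day 0, with no further treatment. RNA bound by YTHDF2 was pulled down with an anti-YTHDF2 antibody (RNA immunoprecipitation, RIP) from papain-dissociated retinas and sequenced beside input RNA, with 2 input and 2 RIP libraries. The comparison of RIP with input asks which transcripts YTHDF2 binds. A pulldown with control IgG is not analysed here, so RNA that sticks to the beads or the antibody cannot be told apart from RNA bound by YTHDF2.

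YTHDF2 is a reader protein that binds N6-methyladenosine (m6A), the most common internal modification of mRNA, and promotes decay of the mRNAs it binds. Ionotropic receptors are ion channels built from several subunits that open when the transmitter binds, and their subunits come from the AMPA, NMDA, kainate and delta families for glutamate, the GABA-A and glycine families for inhibition, and the nicotinic family for acetylcholine. Metabotropic glutamate, GABA-B and muscarinic receptors act instead through G proteins. Around birth, the retina carries spontaneous waves of activity that depend on acetylcholine and nicotinic receptors, before glutamate synapses from bipolar cells take over.

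Of the 73 subunits, 59 had at least 1 read count in some library, 37 had counts in every library and 12 had at least 50 counts in every library. The 14 subunits at 0 counts in all 4 libraries were *Grm6*, *Gabra6*, *Gabrp*, *Gabrr1*, *Gabrr3*, *Glra4*, *Chrna1*, *Chrna2*, *Chrna9*, *Chrna10*, *Chrnd*, *Chrne*, *Chrm2* and *Chrm5*. *Grm6* is the glutamate receptor of ON bipolar cells, which are mostly born after this age, and *Chrna1*, *Chrnd* and *Chrne* belong to the muscle receptor. A count of 0 still allows up to 3 counts, or 0.0874 to 0.125 CPM (counts scaled to the size of each library) depending on the library. A further 20 subunits had 1 to 32 counts over the 4 libraries, with at most 20 in any library, and were too low to test. The remaining 39 subunits were tested, within a fit over 13632 genes.

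The 4 libraries held 19530226 to 39499994 counts in all, but only 2064465 to 3560122 fell on nuclear protein-coding genes, which is 8.29 to 11.2% of each library. All subunits together took 4031 and 4040 counts in the inputs against 4052 and 3717 after RIP, or 0.113 and 0.125% against 0.186 and 0.180% of those coding counts. *Grik3* alone gave 305, 269, 944 and 954 of these counts, in the same order of libraries. Markers of ganglion cells, amacrine cells, horizontal cells, progenitors and photoreceptor precursors were present, and all 4 lens and all 4 pigment epithelium markers were at 0 in every library. Of 5 bipolar cell markers, *Grm6* and *Vsx1* were at 0 in every library, while *Prkca* had 78, 165, 179 and 117 counts. *Cabp5* had 28, 17, 16 and 11 counts, and *Trpm1* had 7 counts in input replicate 1 only. Transcripts were called enriched or depleted by RIP when their log2 fold change was past 1 or -1 and their unadjusted p was under 0.05, which held for 9.43% (enriched) and 17.2% (depleted) of all tested genes. By these limits *Sncg* of the 7 ganglion cell markers was depleted, as were *Tfap2b* of 5 tested amacrine cell markers, *Onecut1* of 4 horizontal cell markers, and *Sox2*, *Hes1* and *Mki67* of 6 progenitor markers. *Megf10* (amacrine cells), *Csf1r* of 3 tested microglial markers and *Kdr* of 2 tested endothelial markers were enriched. DESeq2 did not call *Csf1r*. The other tested microglial markers gave log2 fold changes of -0.78 (*Cx3cr1*) and 1.80 (*C1qa*, not called), and endothelial *Cldn5* gave -0.28. *Pecam1* and *Cdh5*, the untested endothelial markers, had at most 7 counts in any library. No tested marker of photoreceptor precursors, bipolar cells, astrocytes or Muller glia was called. Skeletal muscle markers summed to 77 and 64 counts in the inputs against 11 and 15 after RIP, with *Mylpf* depleted and *Myog* at 0. *Mylpf* alone gave 59, 50, 0 and 7 of these counts, and *Myh3* gave 11, 7, 11 and 4.

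In input RNA the subunits were low. Levels between genes were compared as the deposited FPKM, which divides reads by gene length and library size. Only 4 subunits averaged at least 1 FPKM and 23 at least 0.1. The highest was *Chrna4* at 2.19 ± 0.615 FPKM (SD, n = 2), followed by *Chrnb4* at 2.18 ± 0.499, *Gabbr1* at 2.05 ± 0.0334 and *Grik5* at 1.60 ± 0.270. These neighbours lie within their spread of each other, except that *Grik5* was below *Gabbr1* in both inputs. Next came *Gabbr2* at 0.963 ± 0.201, *Grik3* at 0.805 ± 0.0186, *Chrna3* at 0.789 ± 0.188 and *Chrnb2* at 0.660 ± 0.113. The ranges of these neighbours over the inputs overlapped, except that the lower value of *Gabbr2* (0.822) was just above the higher of *Grik3* (0.819). *Chrna4* with *Chrnb2*, and *Chrna3* with *Chrnb4*, are the usual pairs of neuronal nicotinic receptors. In bulk retina, fewer cells that express a subunit and less of its RNA per cell cannot be told apart.

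**Figure D1:**
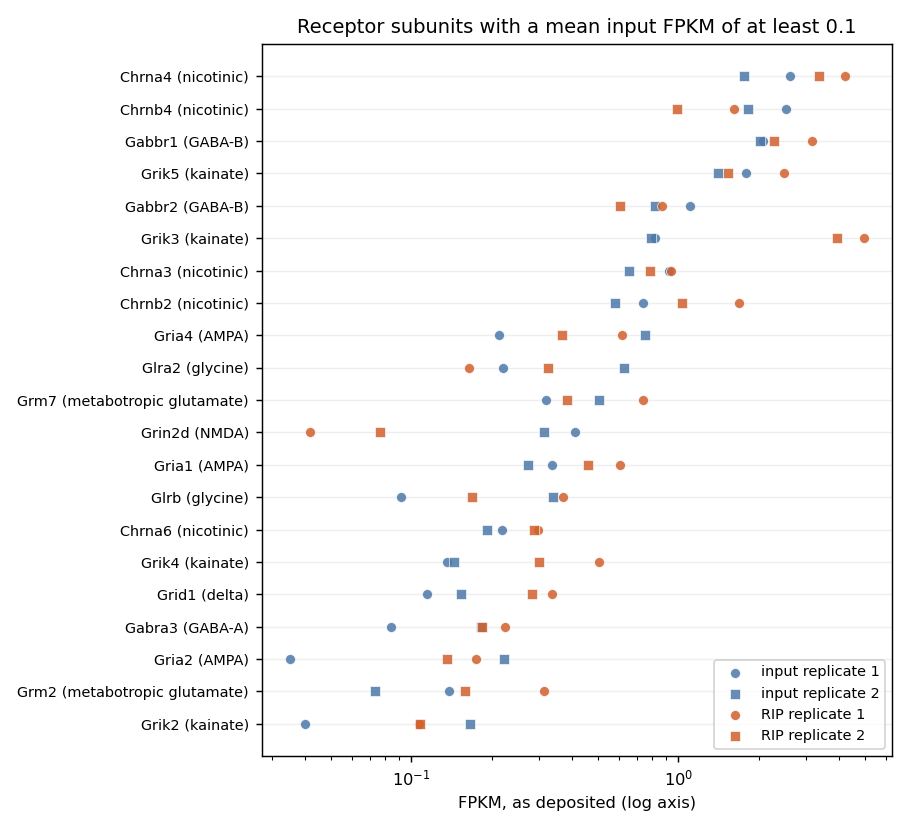
Deposited FPKM (log axis) of 21 of the 23 subunits with a mean input FPKM of at least 0.1, one row per subunit with its receptor class, blue for input and orange for RIP, circles for replicate 1 and squares for replicate 2. *Grik3* sits far to the right in both RIP libraries (4.96 and 3.92 FPKM) and *Grin2d* far to the left (0.0418 and 0.0762 FPKM), while the blue points of *Gria2*, *Gria4* and *Grik2* lie far apart.

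Summed by class, nicotinic subunits made up 44.4 and 31.6% of the subunit FPKM in the inputs against 34.1 and 34.8% after RIP. Kainate subunits rose from 17.4 and 15.5% to 28.5 and 28.6%, and *Grik3* carried this step, with 5.04 and 4.71% in the inputs and 17.5 and 19.1% after RIP. GABA-B subunits held 19.6 and 16.9% in the inputs and 14.2 and 14.0% after RIP. GABA-A subunits held 4.15 and 11.97% in the inputs and 6.05 and 7.62% after RIP, so that the inputs enclosed the RIP libraries. NMDA, delta, glycine and muscarinic subunits each stayed under 6% in every library, and AMPA and metabotropic glutamate subunits ranged from 3.65 to 7.83%. These shares are descriptions of the 4 libraries and were not tested.

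Against input, 3 subunits were enriched by RIP and 3 were depleted. *Grik3*, *Grik4* and *Chrna7* were enriched, which is 7.69% of the 39 tested, while 9.43% of all tested genes were enriched. *Grin2d*, *Grik1* and *Chrnb4* were depleted, again 7.69%, against 17.2% of all tested genes. With an adjusted p under 0.05, only *Grik3* remained among the enriched (3.48% of all tested genes) and only *Grin2d* among the depleted (9.78% of all tested genes). None of the other 33 subunits had an unadjusted p under 0.05 in the edgeR test, and DESeq2 called 2 subunits in each direction. Calls moved with single libraries, both among the subunits and over all tested genes. The median log2 fold change of the subunits, 0.15 with every library, rose to 0.76 when input replicate 2 was omitted. It was 0.37 on omitting RIP replicate 2, and 0.12 on omitting either input replicate 1 or RIP replicate 1. In these fits the median of all tested genes lay between -0.02 and 0.02. The shifts were not tested.

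Among the 39 tested subunits, 25 had a log2 fold change above 0 and 14 below, with a median of 0.15 against -0.05 for all tested genes. Both RIP libraries lay above both inputs in CPM, normalised by trimmed mean of M-values (TMM), for 12 subunits (30.8%, against 29.6% of all tested genes). Both lay below for 6 subunits (15.4%, against 31.3%), and the groups overlapped for 21 (53.8%, against 39.1%). Of the 6 calls, kainate held 3 (2 enriched and 1 depleted of 5 tested). Nicotinic held 2 (1 in each direction of 8 tested) and NMDA held 1 (depleted, of 4 tested). The AMPA, delta, metabotropic glutamate, GABA-A, GABA-B, glycine and muscarinic classes held none, over 22 tested subunits. Over all tested genes 9.43% were enriched and 17.2% depleted, and differences between classes were not tested. With 2 libraries against 2, an exact two-sided permutation test of any value cannot give a p below 0.333, so the fit over all genes was used.

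**Figure D2:**
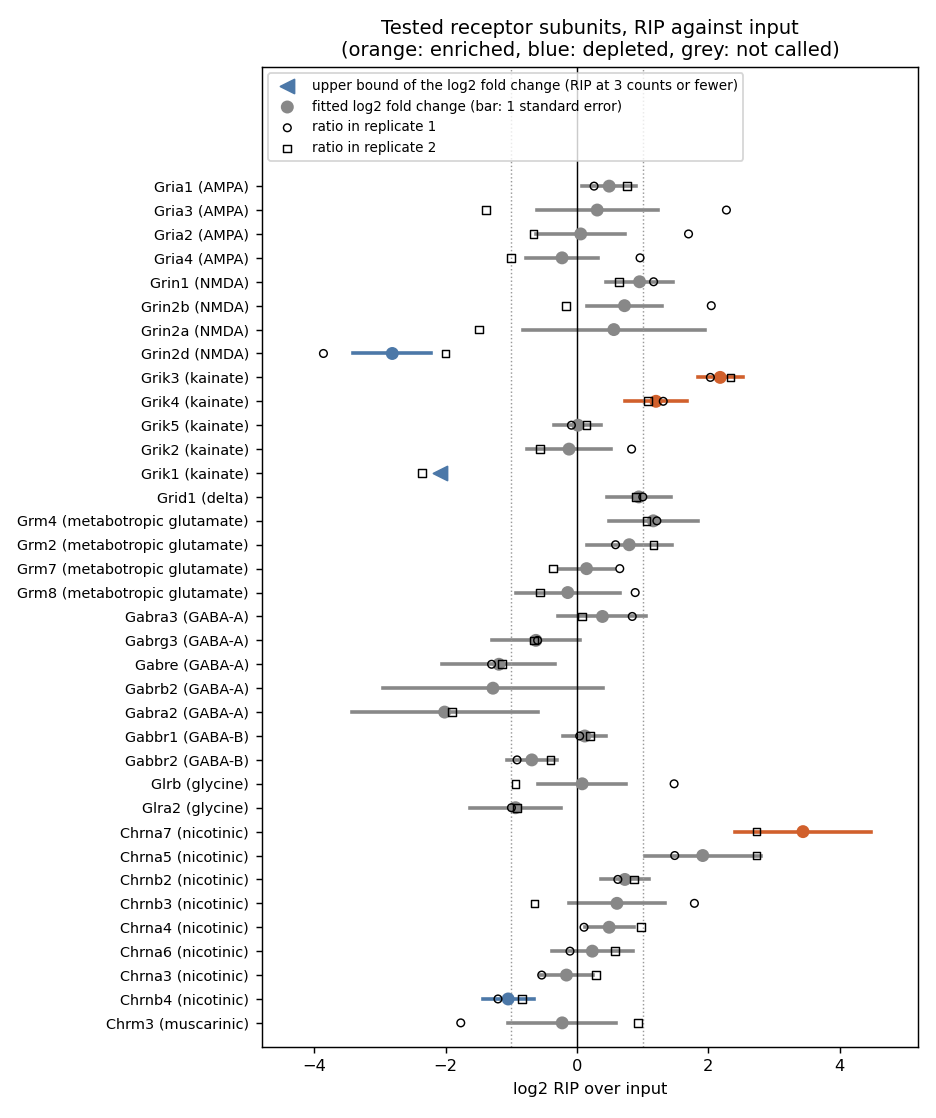
Log2 RIP over input for 36 of the 39 tested subunits by receptor class, with filled points and bars for the fitted value ± 1 standard error and open symbols for the ratio within each replicate where no count was 0; the triangle is the bound for *Grik1*. The open symbols of *Grik3* (2.03 and 2.34) lie close together, while those of *Gria2*, *Gria3*, *Grin2b* and *Glrb* fall on either side of 0.

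Kainate receptors, which sit on both sides of synapses and adjust transmission, held calls in both directions. *Grik3* (ENSMUSG00000001985, chr4:125490700-125714173, + strand, GRCm38) encodes a principal kainate subunit and had 305 and 269 counts in the inputs against 944 and 954 after RIP. Its level was 8.49 ± 0.926 CPM (SD, n = 2) in input and 38.5 ± 1.59 CPM after RIP, and both RIP libraries lay far above both inputs. The log2 fold change was 2.18 ± 0.34 (SE, adjusted p = 0.00554), a 4.54-fold enrichment, and the log2 ratios within replicates were 2.03 and 2.34. Leaving out any library kept it between 2.07 and 2.31. The annotated transcript is 8973 nt long, and the log2 fold change was 1.40 once trends with length and GC content had been removed. A pseudogene on the same strand within its span, *Ftl2-ps*, had 44, 34, 9 and 14 counts and so moved the other way.

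*Grik4* (ENSMUSG00000032017, chr9:42518135-42944493, - strand) encodes an auxiliary kainate subunit that needs a principal subunit to form a channel. It had 34 and 33 counts in the inputs against 64 and 49 after RIP, or 1.02, 0.962, 2.54 and 2.04 CPM. Both RIP libraries lay above both inputs, with a log2 fold change of 1.20 ± 0.47 (SE, adjusted p = 0.127). Its call was lost without RIP replicate 1 (1.12), without RIP replicate 2 (1.43), in DESeq2 (1.22) and with the length and GC trends removed (0.62). The call was lost as well on log2(FPKM + 1) with limma. *Grik5*, the other auxiliary subunit, was the most abundant kainate subunit in input, with 385, 277, 275 and 215 counts. It showed a log2 fold change of 0.02 ± 0.36 (SE), and the groups overlapped.

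*Grik1* (ENSMUSG00000022935, chr16:87895900-88290265, - strand), a principal subunit known from OFF bipolar cells of the adult retina, had 13 and 22 counts in the inputs and 0 and 3 after RIP. Both RIP libraries were at or under 3 counts, so only a bound is given: the transcript was at least 4.23-fold lower after RIP, measured against 3 counts per RIP library (adjusted p = 0.143). It lost its call without input replicate 2 (a bound of -1.68 on the log2 scale), without RIP replicate 1 (-2.05) and in DESeq2. The call was also lost with no filter on low counts and on log2(FPKM + 0.1 or 1) with limma. With at least 10 counts required in every library, *Grik1* was left out of the test. *Grik2*, a principal subunit with 23 and 84 counts in the inputs against 31 and 40 after RIP, had values in the inputs that enclosed those in the RIP libraries, at a log2 fold change of -0.12.

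**Figure D3:**
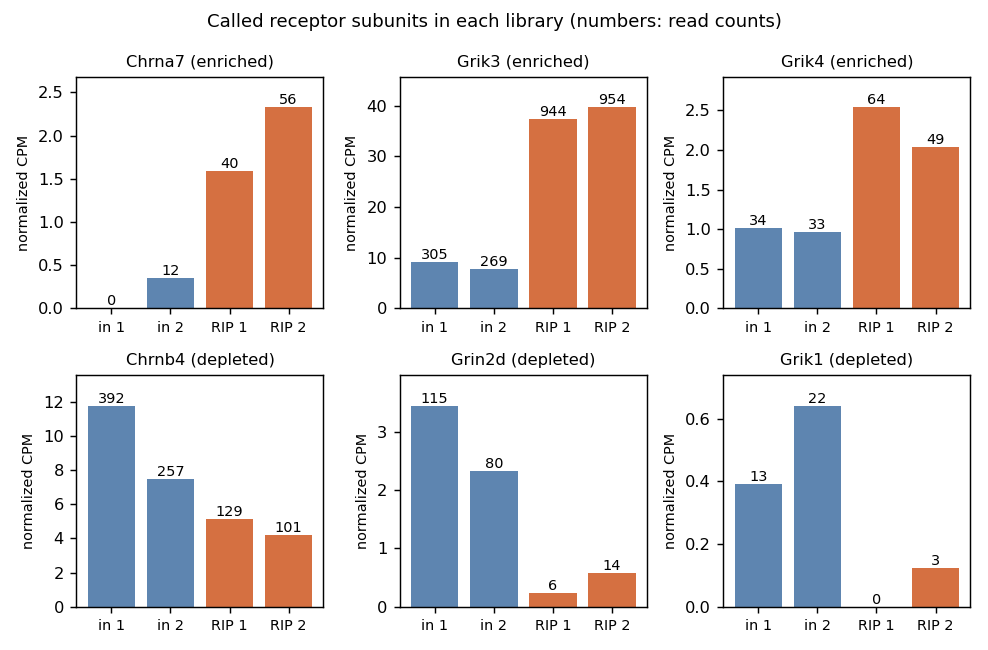
TMM-normalised CPM of the 6 called subunits in each library, with read counts above the bars; in 1 and in 2 are the inputs, and each panel has its own axis from 0. *Grik3* rests on 269 to 954 counts per library, whereas *Chrna7* and *Grik1* have a library at 0.

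NMDA receptors are glutamate-gated channels that pass calcium and need the obligatory subunit *Grin1*. *Grin2d* (ENSMUSG00000002771, chr7:45831883-45878378, - strand) encodes a modulatory subunit typical of early development, with 115 and 80 counts in the inputs against 6 and 14 after RIP. The RIP libraries lay far below both inputs, at 0.410 ± 0.243 CPM against 2.89 ± 0.791 CPM (SD, n = 2). The log2 fold change was -2.81 ± 0.59 (SE, adjusted p = 0.0185), which is 7.02-fold lower. It was called without any one library, at -2.21 without RIP replicate 1, -3.49 without RIP replicate 2 and values between these without either input. On log2(FPKM + 1) with limma, *Grin2d* was not called. With at least 10 counts required in every library, *Grin2d* was left out of the test. *Grin2d* shares 5607 nt with *Kdelr1* on the opposite strand, which had 560 and 163 counts in the inputs, 70 and 56 after RIP and a log2 fold change of -2.08. The library kit keeps strand, but the strand setting of the counting is not given in the sources used here, so reads of this pair cannot be told apart with certainty.

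The other NMDA subunits were not called. *Grin1* had 40 and 33 counts in the inputs and 68 and 36 after RIP, with both RIP libraries above both inputs in CPM and a log2 fold change of 0.95 ± 0.51 (SE, adjusted p = 0.250). *Grin2b*, the modulatory subunit that dominates in young neurons, had 32 and 107 counts in the inputs and 100 and 67 after RIP. Its groups overlapped, and the log2 fold change of 0.72 became 0.12 without input replicate 1 and 1.81 without input replicate 2, where it was called. *Grin2a* had at most 12 counts in any library, and *Grin2c*, *Grin3a* and *Grin3b* were too low to test.

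The sequence GGACT is the form most often cited for the m6A consensus, and it is shown here for the called subunits because YTHDF2 reads m6A. Of the 39 tested subunits, 38 hold it in their longest annotated coding transcript, read on the transcript strand, as do 93.1% of tested protein-coding genes. The median was 0.955 matches per kb in the subunits and 1.04 in those genes. Matches in the 3′ untranslated region are not printed: *Grik3* holds 5 there, *Grin2d* 2, *Chrnb4* 2, and *Grik4* and *Grik1* 0. Of the matches within the coding region, the one nearest its end is printed below. It is given 5′ to 3′ with the motif in capitals, from transcripts of GENCODE M21 (GRCm38).
*Grik3* (enriched, coding bases 1152 to 1172): tggcttgcGGACTgattttga
*Grik4* (enriched, coding bases 2478 to 2498): gtttttgtGGACTctcagaca
*Grin2d* (depleted, coding bases 3457 to 3477): ggtagctgGGACTacctgccc
*Grik1* (depleted, coding bases 2480 to 2500): tggctgcaGGACTcgtccttt
*Chrnb4* (depleted, coding bases 1348 to 1368): gtcatcgaGGACTggaaattc
The 3 depleted subunits hold the motif as well as *Grik3* and *Grik4*, and *Chrna7*, which was enriched, holds no match in its 2078 nt transcript. Over 4672 tested coding genes with a coding region of 1488 to 3972 nt, the range of the called subunits, 91.2% hold GGACT in the coding region. A match is a stretch of letters and does not show that the site is methylated or bound.

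AMPA receptors carry the fast part of glutamate transmission, and none of their 4 subunits was called. *Gria1* had 86 and 64 counts in the inputs and 78 and 76 after RIP, with both RIP libraries above both inputs in CPM (2.58 and 1.87 against 3.09 and 3.16) and a log2 fold change of 0.49 ± 0.41 (SE). *Gria2*, the subunit that makes AMPA receptors impermeable to calcium, had 24 and 133 counts in the inputs and 59 and 59 after RIP. The RIP libraries agreed and the inputs enclosed them, so that the log2 fold change of 0.06 became -0.69 without input replicate 1 and 1.73, past the limits, without input replicate 2. *Gria4* had 57 and 180 counts in the inputs, 84 and 63 after RIP and a log2 fold change of -0.23. *Gria3* ranged from 6 to 26 counts.

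Delta subunits resemble ionotropic glutamate receptors but bind cerebellins to hold synapses together. *Grid1* had 29 and 36 counts in the inputs and 44 and 47 after RIP, both RIP libraries being above both inputs, with a log2 fold change of 0.94 ± 0.49 (SE, adjusted p = 0.237).

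Of the 8 metabotropic glutamate receptors, 7 had counts and 4 were tested. *Grm7*, a presynaptic receptor and the most abundant of the class, had 79 and 114 counts in the inputs and 94 and 62 after RIP, with overlapping groups and a log2 fold change of 0.15 ± 0.42 (SE). *Grm2* had 29, 14, 33 and 22 counts and *Grm4* had 25, 13, 44 and 19, in the order of input 1, input 2, RIP 1 and RIP 2. Both RIP libraries were above both inputs for these receptors, at log2 fold changes of 0.80 ± 0.65 and 1.16 ± 0.68 (SE), yet neither passed the test (adjusted p = 0.452 and 0.289). *Grm8* gave -0.14, and *Grm3* and *Grm5* were too low to test.

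GABA-A receptors are chloride channels, usually of alpha, beta and gamma subunits. Of 19 genes, which include the rho subunits of the retina, 15 had counts and 7 were tested, with no call. *Gabra3* had 14, 27, 19 and 20 counts with overlapping groups, at 0.39 ± 0.67 (SE). The lowest value of the class, -2.01 for *Gabra2*, rested on 4 and 48 counts in the inputs and 0 and 9 after RIP, and had a standard error of 1.42. It passed the limits without input replicate 1 (-2.89) and without RIP replicate 2, where the remaining RIP library was at 0 and the size of the fitted value has no meaning.

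GABA-B receptors need *Gabbr1*, which binds GABA, together with *Gabbr2*, which couples to the G protein. *Gabbr1* had 672 and 598 counts in the inputs and 524 and 483 after RIP, or 20.2, 17.4, 20.8 and 20.1 CPM. The groups overlapped, and the log2 fold change was 0.12 ± 0.33 (SE). *Gabbr2* had 308 and 207 counts in the inputs and 124 and 110 after RIP, or 9.24, 6.03, 4.92 and 4.57 CPM. Here both RIP libraries lay below both inputs, at -0.69 ± 0.38 (SE, adjusted p = 0.267). With the length and GC trends removed, *Gabbr2* passed the limits for depletion at -1.35, while *Gabbr1* turned to -0.42 and was not called.

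Glycine receptors are chloride channels anchored at synapses by their beta subunit. *Glra2*, the alpha subunit of early development, had 29 and 75 counts in the inputs and 11 and 28 after RIP, at a log2 fold change of -0.93 ± 0.69 (SE). The groups overlapped in CPM, and the value reached -1.45, past the limits, without input replicate 1. *Glrb* had 18, 60, 38 and 22 counts and a value of 0.08. *Glra1* had 3 counts in all and was not tested.

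Nicotinic receptors are cation channels opened by acetylcholine, and 10 of 16 subunits had counts. *Chrna7* (ENSMUSG00000030525, chr7:63098692-63212569, - strand) encodes a subunit that can form channels by itself. It had 0 and 12 counts in the inputs and 40 and 56 after RIP, so that both RIP libraries lay above both inputs. The log2 fold change was 3.44 ± 1.04 (SE, adjusted p = 0.0626). Its size depends on the inputs: replicate 1 gives only a bound, at least 17.6-fold higher against 3 counts in that input, and the log2 ratio in replicate 2 was 2.73. It stayed called without any one library, at 2.47 without input replicate 1 and at 4.44 or more, against 3 counts, without input replicate 2. On log2(FPKM + 1) with limma, *Chrna7* was not called. With at least 10 counts required in every library, *Chrna7* was left out of the test.

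*Chrnb4* (ENSMUSG00000035200, chr9:55028154-55048779, - strand) pairs with *Chrna3*. It had 392 and 257 counts in the inputs and 129 and 101 after RIP, or 9.62 ± 3.02 CPM and 4.66 ± 0.646 CPM (SD, n = 2). These RIP values lay below both inputs, at a log2 fold change of -1.05 ± 0.39 (SE, adjusted p = 0.111). The call sat at the limit and was lost without input replicate 1 (-0.68), without RIP replicate 1 (-1.10), without RIP replicate 2 (-0.82) and with scaling by library size alone (-0.68). It was also lost with no filter on low counts and on log2(FPKM + 0.1 or 1) with limma. With the length and GC trends removed, *Chrnb4* was called at -1.25 (edgeR, adjusted p = 0.0214). Ganglion cell markers summed to 48.4 and 40.9 CPM in the inputs and 21.6 and 20.3 after RIP, with *Sncg* depleted among the 7. Without *Sncg* the sums were 25.5 and 27.2 CPM in the inputs against 20.1 and 18.5 after RIP; their part in the value of *Chrnb4* was not tested.

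*Chrna3*, the neighbour and partner of *Chrnb4*, had 203 and 132 counts in the inputs and 106 and 113 after RIP, with overlapping groups and a log2 fold change of -0.16 ± 0.40 (SE). *Chrna5* lies in the same cluster, at chr9:54980880-55007779 on the + strand, and joins such receptors as an accessory subunit. It had 8 and 3 counts in the inputs and 17 and 14 after RIP, the highest value among uncalled subunits at 1.92 ± 0.88 (SE, adjusted p = 0.187). It passed the limits without input replicate 1 (2.78), with no filter on low counts (2.02), in the edgeR exact test (1.92), on log2(FPKM + 0.1) with limma (1.13), with library-size scaling (2.28) and with the length and GC trends removed (2.22). *Chrna4* had 549 and 334 counts in the inputs and 448 and 459 after RIP, or 16.5, 9.73, 17.8 and 19.1 CPM, and *Chrnb2* had 259, 184, 302 and 236 counts. Both RIP libraries lay above both inputs for this pair, at 0.49 ± 0.37 and 0.73 ± 0.36 (SE), and neither was called. *Chrnb2* overlaps *Adar* on the opposite strand over 7252 nt, which had 155, 88, 169 and 170 counts and a log2 fold change of 0.93. As the strand setting of the counting is not given in the sources used here, reads of *Chrnb2* and *Adar* cannot be told apart with certainty. *Chrnb1* and *Chrng*, of the muscle receptor, had at most 9 counts in a library.

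Muscarinic receptors act through G proteins, and only *Chrm3* was tested. It had 27 and 15 counts in the inputs and 6 and 20 after RIP, with overlapping groups and a log2 fold change of -0.22 ± 0.82 (SE). *Chrm1* had 7 and 4 counts in the inputs against 0 in both RIP libraries, and *Chrm4* had 1 count in all; neither was tested.

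The inputs differed from each other more than the RIP libraries did. Over the 19 subunits that reached 20 counts in every library, the median absolute log2 difference was 0.53 for the input pair and 0.16 for the RIP pair, and over all 9749 such genes it was 0.58 and 0.23. The difference between the inputs followed base composition. Across the 19 subunits, which share the same pair of libraries, the Spearman correlation of GC content with log2 input 2 over input 1 was -0.735, and over all such genes it was -0.627. All 5 subunits under 45% GC, a split chosen after the values were seen, were higher in input replicate 2, as were 3 of the 14 at or above it. The same correlation between the RIP libraries was -0.307 in the subunits and 0.00356 over all genes. For *Gria2* and *Grik2*, both under 45% GC, the inputs lay on either side of both RIP libraries.

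**Figure D4:**
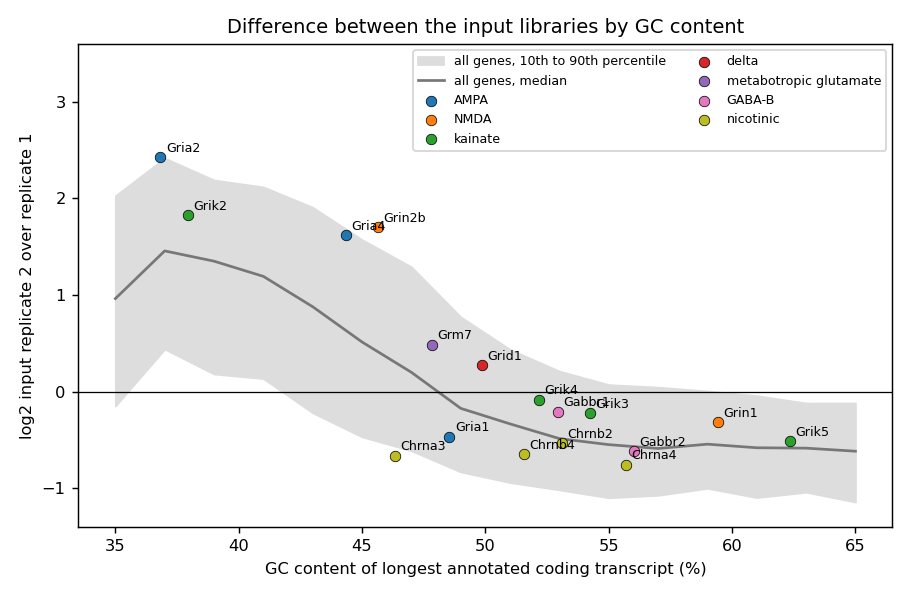
Log2 ratio of input replicate 2 over input replicate 1 against GC content of the longest annotated coding transcript, for 17 of the 19 subunits with at least 20 counts in every library, coloured by class, over the median and the 10th to 90th percentile of all such genes. *Gria2* and *Grik2* lie high at the left, and most subunits above 50% GC lie below 0.

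The tested subunits had longer transcripts than other genes, with a median of 4607 nt against 3339 nt over tested protein-coding genes, and a GC content of 47.7% against 50.2%. Over all tested genes, longer transcripts had higher fold changes (Spearman correlation 0.510, across genes that share the 4 libraries), while over the 39 subunits it was 0.0939. With these trends removed, the median of the subunits was 0.01 and that of all genes 0.02. Scaling by library size alone raised the median of all genes from -0.05 to 0.27, the share of enriched among all calls from 35.4 to 57.7%, and the subunits called to 8 enriched and 2 depleted. The 5 added ones were *Grin1*, *Grid1*, *Grm4*, *Chrna5* and *Chrnb2*.

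Partner genes, which place, modify or feed these receptors, were examined as 4 lists with 94 genes, of which 83 were tested. Of these, 7 were enriched (8.43%, against 9.43% of all tested genes) and 7 were depleted (8.43%, against 17.2%). Among 38 tested scaffolds and auxiliary subunits of glutamate receptors, none was enriched in edgeR, none had an unadjusted p under 0.05 with a positive fold change, and DESeq2 called none enriched. In this list 5 were depleted, or 13.2% against 17.2% of all tested genes, with a median log2 fold change of -0.23. They were *Cacng2*, *Cacng3*, *Cacng7*, *Cacng8* and *Cnih2*, each known as an auxiliary subunit of AMPA receptors. *Cacng2* (stargazin) had 292 and 177 counts in the inputs and 25 and 20 after RIP, and *Cacng7* had 2049, 1007, 194 and 160. After RIP, these transcripts lay far below both inputs, at -2.93 ± 0.46 and -2.66 ± 0.44 (SE, adjusted p = 0.00565 and 0.00697). *Cacng3* gave -2.00, *Cnih2* -2.02 and *Cacng8* -1.83 (adjusted p = 0.0218, 0.0443 and 0.0774). Without input replicate 1, *Cacng7* came to -2.03 and *Cnih2* to -1.18. *Cnih2* lost its call without RIP replicate 1 (-1.63) and *Cacng8* without input replicate 1 (-1.37) or RIP replicate 2 (-1.5005). Other tested genes known to act on AMPA receptors were not called, among them *Cacng4* (-0.94), *Cacng5* (-0.66), *Shisa7* (-0.77), *Shisa6* (-0.46), *Gsg1l* (0.11) and *Frrs1l* (0.60). Uncalled as well were *Grip2* (1.44, on 5 to 15 counts per library), *Pick1* (0.63), *Nsf* (0.51), *Grip1* (0.16), *Nptxr* (0.16), *Nptx1* (-0.04) and *Nptx2* (-0.20). Of the 38 tested genes of this list, 15 had a log2 fold change above 0.

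Among 19 tested partners of GABA and glycine receptors, 5 were enriched (26.3%, against 9.43% of all tested genes) and 1 was depleted (5.26%, against 17.2%), with a median of 0.19. *Lhfpl4*, which holds GABA-A receptors at synapses, had 784 and 595 counts in the inputs and 2241 and 2107 after RIP. After RIP it lay far above both inputs, at 2.11 ± 0.35 (SE, adjusted p = 0.00726). The chloride transporters *Slc12a5*, which extrudes chloride, and *Slc12a2*, which imports it, gave 1.49 and 1.54 (adjusted p = 0.0355 and 0.133). *Slc12a2* had 25, 104, 117 and 153 counts and lost its call without input replicate 1 (0.86), RIP replicate 1 (1.78) or RIP replicate 2 (1.32), and *Slc12a5* without RIP replicate 1 (1.38) and with the trends removed (0.71). *Plcl1* and *Trak1*, which take part in receptor traffic, gave 1.89 and 1.23 (adjusted p = 0.0498 and 0.0700). Without input replicate 2, *Plcl1* came to 2.85 and *Slc12a2* to 2.87. *Gabarap*, a small protein that binds the gamma subunit, was depleted, with 1243 and 679 counts in the inputs, 124 and 140 after RIP and a log2 fold change of -2.41 ± 0.42 (SE).

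The 11 tested acetylcholine receptor partners had a median of 0.41. *Lrp4*, an agrin receptor, was enriched at 1.21 (adjusted p = 0.0469) and *Ly6h*, which holds back *Chrna7* receptors, was depleted at -1.66 (adjusted p = 0.117). Each is 9.09% of those tested, against 9.43% enriched and 17.2% depleted of all tested genes. *Lrp4* lost its call without RIP replicate 1 (1.24) and with the trends removed (0.44), and *Ly6h* without input replicate 1 (-1.08), RIP replicate 1 (-1.20) or RIP replicate 2 (-2.03). Of 16 tested genes of transmitter synthesis and uptake, the glutamate transporter *Slc1a2* was enriched. It had 164 and 613 counts in the inputs, 978 and 904 after RIP and a log2 fold change of 1.74 ± 0.55 (SE, adjusted p = 0.0727). Without RIP replicate 1 (1.76) it was not called. Without input replicate 1 the value was 1.10, or 2.96 when input replicate 2 was left out. No gene of this list was depleted in edgeR or DESeq2, and none had an unadjusted p under 0.05 with a negative fold change. In this list 6.25% were enriched and 0% depleted, against 9.43% and 17.2% of all tested genes.

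**Figure D5:**
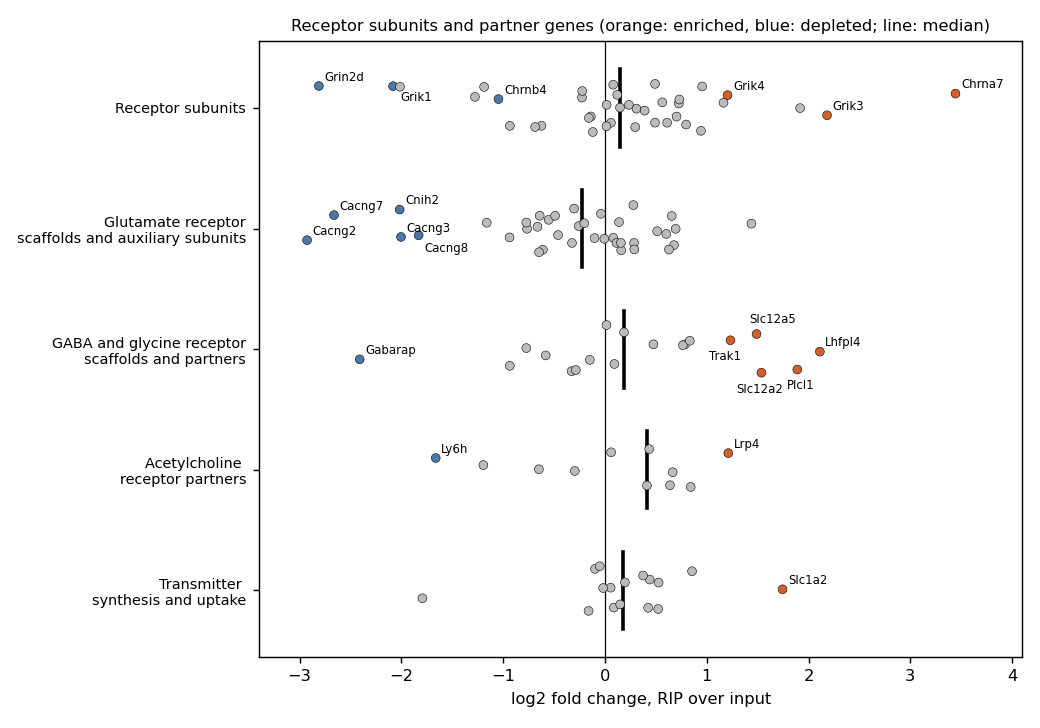
Log2 fold change of RIP over input for the tested receptor subunits and the 4 partner lists, each point a gene, with enriched genes in orange, depleted genes in blue and a line at each median; points are spread vertically for legibility and *Grik1* is drawn at its bound. The glutamate receptor list has 5 blue points and no orange one, and the GABA and glycine receptor list has 5 orange points and 1 blue one; differences between lists were not tested.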

How the data were processed

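The authors deposited whole-number counts per gene and FPKM values for 2 input and 2 RIP libraries. The submitters' processing notes name STAR 2.5, HTSeq and GRCm38; counting settings and annotation are not given in the sources used here. Every sample column was used. Gene models came from GENCODE M21, which holds 52403 of the 52550 identifiers.

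Genes passing filterByExpr (count 10, total 15) were scaled by TMM and tested with the quasi-likelihood test of edgeR 4.0.16 in R 4.3.3, with Benjamini-Hochberg adjustment. The scripts were tested on simulated data. Alternatives used DESeq2 1.42.0, limma 3.58.1 on log2(FPKM + 0.1 or 1), other scalings and filters, each library left out, a replicate block, and trends on GC content and length (mgcv 1.9.3). Replicates were biological, and floors of 3 counts cover counting error only. The design text gives each replicate an input and a pulldown; across genes the differences between replicates had a Pearson r of -0.0282 between inputs and RIP libraries.

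Members and lists were chosen with earlier results of these data known. Named were the called subunits, the 3 highest by input FPKM in each class, and the called genes of each partner list, at most 5; a few subunits are not reported here by name, and the counts over all subunits include them. Other subunits, the marker genes, overlapping genes and uncalled partner genes were named after their values were seen.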

Additional observations from a re-analysis of the deposited data

How the results depend on the processing

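Over 11 alternatives with all libraries, 37 named genes gave 403 values, of which 356 kept their direction and call, 27 lost a call, 5 gained one and 15 changed sign. The subunits enriched and depleted (3 and 3) became 8 and 2 with library-size scaling, where all genes enriched were 2357 and partners 12. Depleted subunits fell to 1 with no filter, with at least 10 counts in every library and on log2(FPKM + 0.1). On log2(FPKM + 1) with limma, 1 subunit was enriched and 0 depleted (1 with unadjusted p under 0.05 and a negative value), with 374 and 1013 of all genes and 2 and 4 partners. With the trends taken out, all genes depleted numbered 1517 (1438 with the replicate block) and partners 14 (13).

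Leaving out each library gave 2 to 7 subunits enriched and 1 to 4 depleted, 623 to 2087 and 1475 to 2565 of all genes, and 3 to 14 and 5 to 14 partners; the median of subunits minus that of all genes (0.20) ran from 0.10 to 0.76. Without input replicate 2, the highest, subunits enriched included *Grik3*, *Grik4*, *Chrna7*, *Gria2*, *Grin2b* and *Grin2a*.

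The paired fit with the replicate block called 3 and 3 subunits, 1485 and 2307 of all genes, and raised the enriched genes past the adjusted limit from 474 to 721; *Chrna7* passed it too (3.90). It changed no other subunit's call.

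Sign changes were all in uncalled subunits. With library-size scaling they were *Gria4* (0.0892), *Chrna3* (0.18) and *Chrm3* (0.0315); with at least 10 counts they were *Gria2* (-0.0173) and *Grik5* (-0.0519). On log2(FPKM + 0.1) they were *Gria4* (0.16) and *Chrna3* (0.13), and on log2(FPKM + 1) 0.0261 and 0.0629. With the trends they were *Grik5* (-0.53), *Grm7* (-0.0898) and *Gabbr1* (-0.42), and with the block added -0.54, -0.0969 and -0.42. The 37 genes above leave out some subunits with values given earlier, such as *Grik2*, *Gria3* and *Grm8*. Over the 37 genes, leave-one-out ranges that crossed 0 were -0.69 to 1.73 (*Gria2*), -0.82 to 0.80 (*Gria4*), -0.22 to 0.30 (*Grik5*), -0.0744 to 0.45 (*Grm7*), -0.53 to 1.16 (*Glrb*), -0.45 to 0.21 (*Chrna3*) and -1.28 to 0.52 (*Chrm3*). Causes were not tested. Of the 39 tested subunits, 12 had at least 50 counts in every library.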
